A study of Sus scrofa with 20 samples.

Results

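CYP4 enzymes are cytochrome P450 proteins of the endoplasmic reticulum that place a hydroxyl group at or near the methyl end of fatty acids. The hydroxylated acids can be oxidised further to dicarboxylic acids and shortened in peroxisomes, and several CYP4 products of arachidonic acid are signalling lipids. Enzymes of the CYP4A subfamily are best known from liver and kidney, where the fatty acid receptor PPAR alpha controls many of their genes, and pig CYP4A21 is known for hydroxylating a bile acid rather than fatty acids. CYP4B1 is known mainly from lung and is unusual among its relatives in the variety of foreign compounds it can oxidise.

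The CYP4 fatty acid hydroxylases were taken from a list of 5 gene symbols, CYP4B1, CYP4A11, CYP4A21, CYP4A24 and CYP4A25, which resolved to 4 of the 21755 reference IDs counted in the series. CYP4B1 (XM_003128017.1) and CYP4A11 (XM_003128032.1) were named after the study, CYP4A21 (NM_214425.1) and CYP4A24 (NM_214424.1) by a RefSeq gene table, and CYP4A25 is listed there only as another name of CYP4A24, so both symbols stand for 1 ID. The same table gives the CYP4B1 accession as LOC100523909 and does not list the CYP4A11 accession. In its gene order, LOC100523909 is the direct neighbour of CYP4A21, and 3 entries lie between CYP4A21 and CYP4A24. CYP4B1 and CYP4A11 were selected on their measured level in high against low androstenone testis, so their testis group values are given below as a description and without a test.

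The libraries came from testis and liver of 10 boars of a Duroc x F2 cross, in which the F2 had been bred from Leicoma x German Landrace F1 animals and Large White pigs, slaughtered at an average age of 116 days. Androstenone is a testicular steroid that accumulates in fat and gives boar taint, and 5 boars had a high and 5 a low level of it in fat. Each of the 4 groups (low testis, high testis, low liver, high liver) held 5 samples, and each sample gave a library of its own with 100 bp single reads. Levels were compared as counts per 1000000 (CPM) after TMM scaling within a tissue, and since transcript lengths were not used, levels were compared between samples and not between genes.

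Testis libraries held 6161397 to 15975386 counts and liver libraries 5796973 to 26783002, and 3 counts, below which a level was not separable from 0, corresponded to at most 0.487 CPM in testis and 0.518 CPM in liver. These limits and the intervals of counts given below cover counting error only. The tissue labels held: the 8 measured hepatocyte markers summed to between 82947 and 222088 CPM in liver and to between 57.9 and 173 CPM in testis, while 6 germ cell markers summed to between 2246 and 6365 CPM in testis and to at most 23.5 CPM in liver. Some libraries stood apart in a way that the androstenone groups did not explain. VIPR1, a peptide hormone receptor gene whose testis pattern resembled that of CYP4A24, was at 89.6 to 178 CPM in 4 testis samples (low 3 and 4, high 1 and 2) and at 5.64 to 9.11 CPM in the other 6. In liver it was at 88.1 to 245 CPM in 5 samples (low 1, 2 and 5, high 1 and 3) and at 8.22 to 19.9 CPM in the other 5. These were the 4 testis and the 5 liver libraries with the largest totals, 12862106 counts or more against at most 12462278 in the rest. The division, at 50 CPM of VIPR1, was chosen after the values were seen and does not follow a label of the study.

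In testis, CYP4B1 and CYP4A11 were both measured over a wide range, were high and low in the same samples, and had higher means in the high androstenone group. CYP4B1 was at 1.82, 2.84, 10.7, 10.5 and 43.3 CPM in low androstenone testis samples 1 to 5. In high androstenone testis samples 1 to 5 it was at 5.13, 85.7, 96.2, 97.9 and 28.3 CPM. The groups overlapped, since high sample 1 lay below low samples 3, 4 and 5, and high sample 5 lay below low sample 5. The means were 13.8 ± 17.0 CPM in the low and 62.6 ± 43.0 CPM in the high group (SD, n = 5 each), a difference of 2.15 on the log2 scale. Low sample 5 alone made up 62.6% of the summed CPM of its group, and without it the difference was 3.22.

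CYP4A11 followed the same order at its own scale. Its levels were 0.70, 1.49, 2.66, 3.31 and 16.1 CPM in low testis samples 1 to 5. They were 1.56, 25.1, 34.6, 28.3 and 8.44 CPM in high testis samples 1 to 5. Again high sample 1 was within the low range and low sample 5 stood above the rest of its group. Group means were 4.84 ± 6.35 CPM and 19.6 ± 14.0 CPM (SD, n = 5 each), a log2 difference of 1.97 that became 3.18 without low sample 5. Across all 18340 reference IDs tested in testis, by the quasi-likelihood test of edgeR 0% passed an adjusted p under 0.05 with a fold change of at least 1.5, 9.49% had an unadjusted p under 0.05, and the median log2 difference was -0.02. By DESeq2, 52 IDs passed both thresholds. In these bulk samples, more cells of a type and more RNA per cell cannot be told apart.

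**Figure D1:**
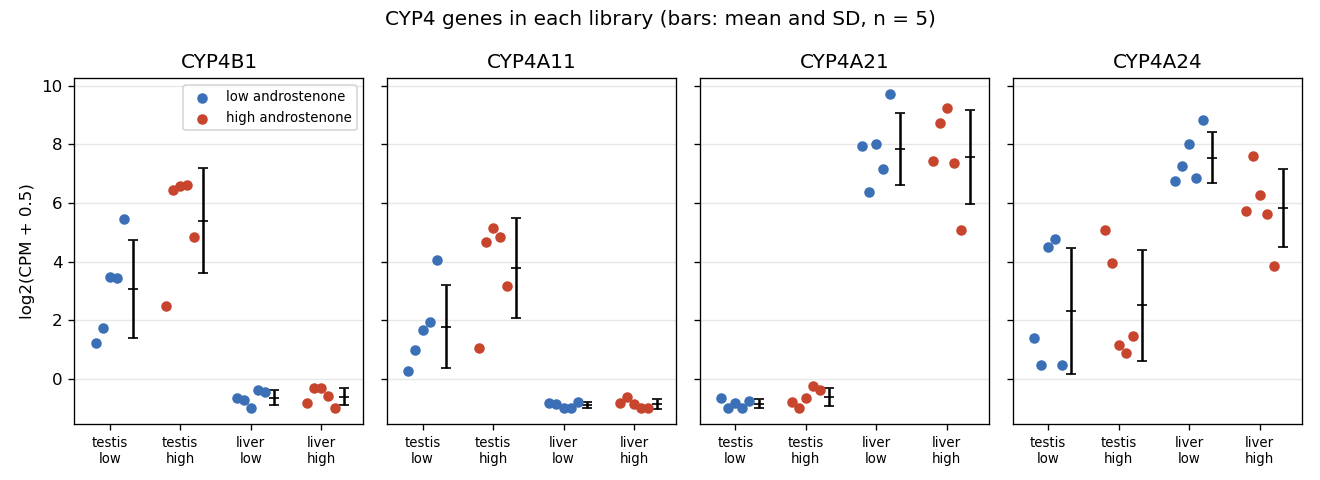
Level of the 4 CYP4 genes in each of the 20 libraries, as log2(CPM + 0.5), by tissue and androstenone group. Each point is 1 library and the black bars give the mean and SD of 5; CYP4B1 and CYP4A11 are near the lower limit in liver, CYP4A21 in testis, and CYP4A24 splits into separate levels within both testis groups.

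CYP4A24, a fatty acid hydroxylase gene of the CYP4A subfamily, had another testis pattern. It was at 2.10, 0.90, 22.2, 27.1 and 0.88 CPM in low testis samples 1 to 5, and at 33.5, 14.8, 1.73, 1.35 and 2.28 CPM in high testis samples 1 to 5. Low samples 3 and 4 and high samples 1 and 2 were thus all at 14.8 CPM or more, and the other 6 at 2.28 CPM or less. The group means, 10.6 ± 12.9 CPM in low and 10.7 ± 13.9 CPM in high testis (SD, n = 5 each), differed by 0.03 on the log2 scale. None of the samples in which CYP4A24 was high was among those that led CYP4B1, except high sample 2. CYP4A21 was near the lower limit throughout, with 0 to 2 counts in each testis library and 9 counts in all 10, and it was not tested there.

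The 4 testis samples with high CYP4A24 were the 4 with VIPR1 above 50 CPM. VIPR1 and the division were chosen after the values were seen. This match, and the place of both genes among the 31 IDs below, are therefore a description and not a test. The ratio of CYP4A24 to VIPR1 counts stayed between 0.1 and 0.259 in all 10 testis libraries, although the counts of CYP4A24 themselves ran from 6 to 451. In liver, the same ratio ran from 0.364 to 23.4. Of 14487 IDs compared in testis, 31 were at least 2-fold higher in each of these 4 libraries than in any of the other 6. In the other direction, 1 was at least 2-fold lower. Among the 31 were CYP4A24, VIPR1 and the liver-made plasma protein gene PLG, which was picked out after its values were seen. PLG was at 6.83 to 15.6 CPM in the 4 and at 0 to 0.75 CPM in the 6, beside 633 to 1215 CPM in liver. The 8 measured hepatocyte markers, which do not include PLG, summed to 57.9 to 173 CPM over the testis libraries. In liver they summed to 82947 to 222088 CPM. CYP4A21 had 0 or 1 count in each of the 4. CYP4B1 did not follow this division, at 5.13 to 85.7 CPM in the 4 libraries and 1.82 to 97.9 CPM in the 6. Its high minus low log2 difference was 2.18 in the 6 libraries alone, and that of CYP4A11 was 1.90. The part of depth, of library handling or of liver RNA in the CYP4A24 pattern was not tested.

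**Figure D2:**
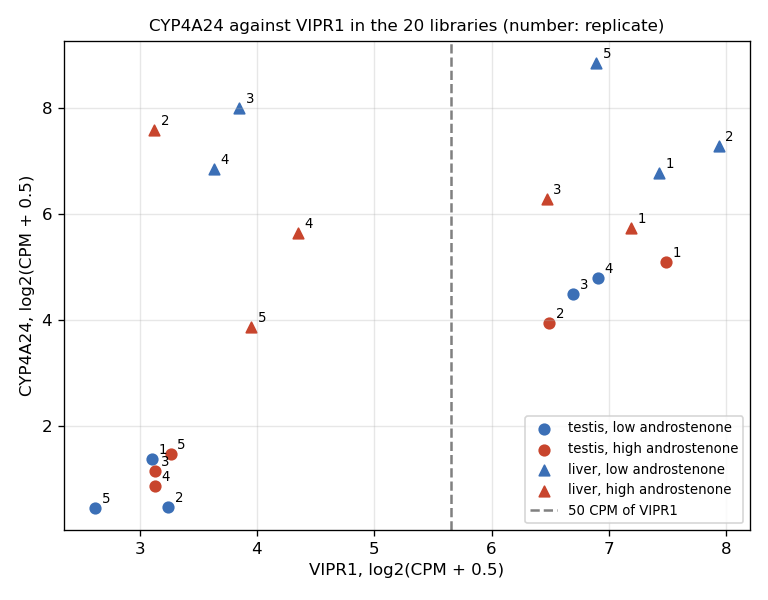
CYP4A24 against VIPR1 in the 20 libraries, both as log2(CPM + 0.5), with circles for testis, triangles for liver, blue for low and red for high androstenone, and the replicate number beside each point. The testis libraries form separate groups, 4 to the right of the dashed line at 50 CPM of VIPR1 with 14.8 to 33.5 CPM of CYP4A24 and 6 to the left with at most 2.28 CPM; the liver libraries split on VIPR1 while their CYP4A24 levels overlap.

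Whether the testis genes rose in the same samples was examined as a correlation of log2(CPM + 0.5) over the 10 testis libraries. CYP4B1 and CYP4A11 had a Pearson r of 0.99 and a Spearman rho of 0.98, values that are in part set by the choice of both genes for a group difference. After the group means were subtracted, r was 0.98 (exact permutation within groups, p = 2.78e-04, adjusted p = 0.00167 over 6 values) and rho was 0.98 (exact permutation p = 6.94e-04, adjusted p = 0.00208). Without the 2 samples farthest from the median, the group-centred r was 0.96. In the 10 libraries CYP4A11 had 0.247 to 0.526 counts per count of CYP4B1. As a share of the counts of both genes, CYP4A11 took between 19.8% and 34.5%, and the 95% Wilson interval of each of the 10 libraries held the 23.96% of all libraries summed. These intervals are wide in the libraries with few counts. Summed over libraries, the share was 22.5% in the 4 with VIPR1 above 50 CPM and 25.2% in the other 6, while the CYP4B1 level itself differed up to 53.8-fold between libraries. How reads that fit both reference sequences were counted is not given in the sources used here, so 2 genes that vary together and 1 gene whose reads were shared between 2 reference sequences cannot be told apart.

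**Figure D3:**
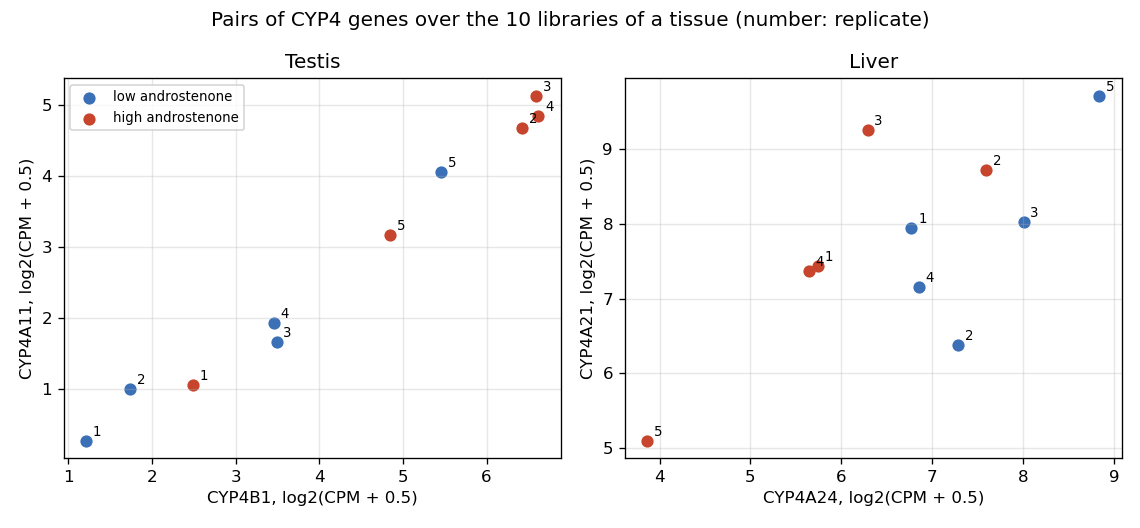
Left, CYP4A11 against CYP4B1 in the 10 testis libraries; right, CYP4A21 against CYP4A24 in the 10 liver libraries; all axes are log2(CPM + 0.5), blue is low and red high androstenone, and numbers are replicates. The testis points lie close to 1 line (r = 0.99), while the liver points scatter more widely (r = 0.71).

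Genes with the testis pattern most like CYP4B1 were sought among 4609 IDs with a symbol and a mean of at least 10 counts, by Pearson r over the 10 testis libraries, as a description. After CYP4A11 these were GRK5, a receptor kinase gene (r = 0.97), SCARB1, the receptor that takes up cholesterol from high density lipoprotein (r = 0.94), TMEM8A (r = 0.94) and THSD4 (r = 0.93). GRK5 and THSD4 were low, at 2.24 to 8.24 CPM and 0.56 to 3.21 CPM in turn. For CYP4A11 the list after CYP4B1 was SCARB1 (r = 0.96), GRK5 (r = 0.94), CYP17A1, the steroid 17-hydroxylase of Leydig cells (r = 0.92), and BCKDHB, a subunit of branched-chain amino acid breakdown (r = 0.92). SCARB1 and CYP17A1 also belong to the list of Leydig cell markers, the steroid-producing cells of the testis.

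Of the 13 Leydig cell markers listed, 7 were measured, and over these the group-centred r with CYP4B1 ran from -0.16 to 0.91 with a median of 0.62. Of the 7 markers, 2 passed an adjusted p under 0.05 with CYP4B1 by the exact permutation test within groups, adjusted over 76 values. SCARB1 had a group-centred r of 0.91 (exact p = 0.00125, adjusted p = 0.0264) and a rho of 0.90 (exact p = 0.00313, adjusted p = 0.0339). CYP17A1 had a group-centred r of 0.90 (exact p = 0.00208, adjusted p = 0.0264) and a rho of 0.85 (exact p = 0.00458, adjusted p = 0.0387). Without the 2 farthest samples these r were 0.84 and 0.75. INSL3, a peptide hormone gene specific to Leydig cells, had an r of 0.82 (exact p = 0.00944, adjusted p = 0.0552). LHCGR, the receptor of luteinising hormone, had -0.16 (exact p = 0.667, adjusted p = 0.859). Without the 2 farthest samples the r of INSL3 was 0.58 and that of LHCGR changed sign to 0.59. FDX1, also on the list, had an r of 0.06 with all samples. With CYP4A11, SCARB1, CYP17A1 and INSL3 passed, with r of 0.94, 0.92 and 0.84 and adjusted p of 0.0264, 0.0264 and 0.0499 by the same exact test. For INSL3 the rank correlation with CYP4A11 did not pass (rho = 0.68, exact p = 0.0461, adjusted p = 0.184), and its r was 0.65 without the 2 farthest samples. Of the 6 measured Sertoli cell markers, only SOX9, a transcription factor gene, passed with CYP4B1, and it ran the opposite way (r = -0.90, exact p = 0.00174, adjusted p = 0.0264). With CYP4A11 no Sertoli marker passed, and no germ cell marker (6 measured) passed with either gene.

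The marker genes varied much less than the CYP4 genes. SCARB1 was at 15.4, 16.1, 16.7, 16.9 and 32.7 CPM in low testis samples 1 to 5 and at 17.3, 43.6, 38.7, 36.7 and 32.1 CPM in high testis samples 1 to 5. Low sample 5 was the highest of its group and high sample 1 the lowest of its group, as with CYP4B1. CYP17A1 ran from 130 to 836 CPM in testis, 6.45-fold, against 53.8-fold for CYP4B1. The summed level of the 7 Leydig cell markers was 1060 to 4716 CPM in low and 1216 to 4783 CPM in high testis, with no marker at 0 in either group. None of the 7 passed the adjusted test between high and low testis, which 0% of all IDs passed. Their median log2 difference was 0.23 beside -0.02 for all IDs, and 5 of the 7 were positive. By the edgeR quasi-likelihood test, 3 of the 7 had an unadjusted p under 0.05, beside 9.49% of all IDs. These were CYP17A1 (0.86), SCARB1 (0.78) and FDX1 (0.52), all higher in the high group. The other positive differences were those of INSL3 (0.23) and LHCGR (0.18). Between the tissues, 4 of the 7 were called higher in testis, among them CYP17A1 and INSL3 (liver minus testis -11.11 and -12.02). The liver minus testis difference was positive for 3, among them SCARB1 (0.50) and FDX1 (0.04), which were thus not confined to testis. The part of Leydig cell number in the CYP4B1 and CYP4A11 levels was not tested.

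**Figure D4:**
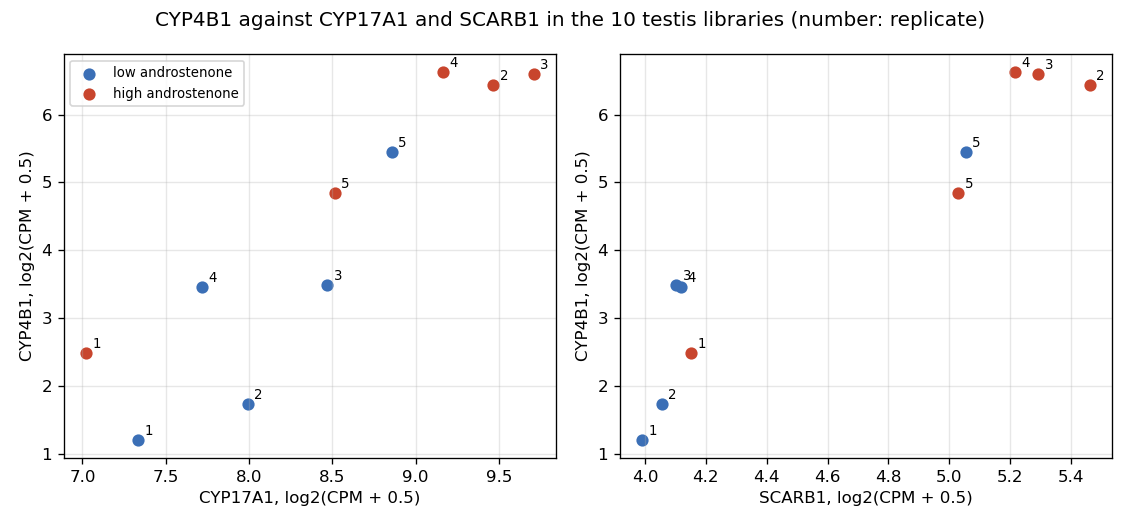
CYP4B1 against the Leydig cell markers CYP17A1 (left) and SCARB1 (right) in the 10 testis libraries, as log2(CPM + 0.5), with blue for low and red for high androstenone and the replicate number beside each point. CYP4B1 is higher where the markers are higher, with group-centred r of 0.90 and 0.91, and high sample 1 and low sample 5 lie among the points of the other group.

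Markers of other cell types also had unequal levels in the testis groups. Red blood cell markers (10 IDs of 4 genes, several of them near-identical globin sequences) summed to 165 to 1524 CPM in low and 73.2 to 226 CPM in high testis, and all 10 IDs had a lower level in the high group, with a median log2 difference of -1.94. Vessel wall and endothelium markers (4 measured) summed to 221 to 813 CPM and 110 to 430 CPM, and macrophage and leukocyte markers (7 measured) to 16.9 to 39.0 CPM and 14.1 to 19.7 CPM, in low and high testis in turn. In none of the 3 lists was a marker at 0 throughout a group, and none of their IDs passed the adjusted test, which 0% of all IDs passed. An unadjusted p under 0.05 in the edgeR test was reached by 10 of 10 red blood cell IDs. It was also reached by 2 of 4 vessel wall and 4 of 7 leukocyte markers, beside 9.49% of all IDs. Their part in the CYP4 levels was not tested. Adipocyte, epithelium, hepatocyte, Sertoli cell and germ cell markers had median log2 differences between -0.38 and 0.35 in testis, with 0 IDs passing. The 6 measured Sertoli cell markers summed to 17698 to 30667 CPM in low and 5700 to 18870 CPM in high testis. CLU, with a mean of 17571 CPM in testis, had a log2 difference of -0.72. Of the 6, 1 had a positive difference, and CLU alone had an unadjusted p under 0.05 in the edgeR test. The part of Sertoli cells in the CYP4 levels was not tested.

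Between the tissues, the 4 genes divided into a testis pair and a liver pair. In the fit of all 20 libraries, 19065 IDs were tested, of which 32.2% were called higher in liver and 43.5% higher in testis, with a median log2 difference of -0.31 (liver minus testis), so a call by itself sets a gene apart from few others. CYP4B1 had 3860 counts in testis and 19 in liver, where no library held more than 6. Its log2 difference was -6.47 (SE 0.67), and per total counts testis held 238 times as much (95% exact interval 152 to 395). The log2 difference contrasts the means of the 4 groups after TMM scaling over all 20 libraries. The ratio pools the raw counts of a tissue without that scaling, and its interval covers counting error only. These measures therefore need not give the same fold. CYP4A11 had 1216 counts in testis and 6 in liver, 0 or 1 in each liver library, with a log2 difference of -6.40 (SE 0.74) and a ratio of 237 (109 to 648). The human gene named CYP4A11 is known as a liver and kidney hydroxylase, and the pig ID given that name was at or below the level of 3 counts in every liver library. Both genes had been listed for a testis difference and so had to be measurable in testis, and CYP4A11 passed the filter on low counts through testis alone, so no p is given for their tissue difference. Neither gene had a testis library within the range of the liver libraries, as held for 27.5% of all IDs tested in that direction.

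CYP4A21 was the reverse, with 37923 counts in liver, through which it passed the filter on low counts, and 9 in testis. The log2 difference was 12.53 (SE 0.71) and liver held 3600 times as much per total counts (95% exact interval 1896 to 7873). Since CYP4A21 passed the filter through liver alone, no p is given for this difference. The tissues did not overlap, as for 15.3% of all IDs tested in that direction. CYP4A24 was higher in liver by 4.55 on the log2 scale in the fit (SE 0.69, edgeR adjusted p = 1.53e-06). Per total counts, without TMM scaling, liver held 10.2 times as much of it (9.68 to 10.8). Here the tissues overlapped, since the highest testis library was at 33.5 CPM and the lowest liver library at 14.1 CPM. The tissue differences moved with the libraries taken. In the 6 testis and 5 liver libraries with VIPR1 below 50 CPM they were 7.30 for CYP4A24, -6.94 for CYP4B1, -7.95 for CYP4A11 and 11.24 for CYP4A21, with CYP4A24 at 0.88 to 2.28 CPM in testis and 14.1 to 256 CPM in liver. In the 4 testis and 5 liver libraries above, CYP4A24 was at 14.8 to 33.5 CPM and 53.0 to 456 CPM. On either side of the division these CYP4A24 ranges did not overlap, with fewer libraries compared. The division rests on VIPR1, whose testis pattern resembled that of CYP4A24. The share of all IDs without overlap in these smaller sets was not computed, so this is a description.

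In liver, CYP4A24 had a lower mean in high than in low androstenone boars and CYP4A21 did not differ detectably. CYP4A24 was at 109, 155, 256, 115 and 456 CPM in low liver samples 1 to 5. In high liver samples 1 to 5 it was at 53.0, 192, 77.6, 49.5 and 14.1 CPM. Of the high samples, 4 lay below all low samples, while high sample 2 lay above low samples 1, 2 and 4. The means were 218 ± 146 CPM and 77.3 ± 68.2 CPM (SD, n = 5 each), a log2 difference of -1.50 (SE 0.58) that was -2.17 without high sample 2 and -1.04 without low sample 5. By the quasi-likelihood test of edgeR over 15855 IDs, the unadjusted p was 0.0205 and the adjusted p 0.9999, of which 0% were called and 2.93% had an unadjusted p under 0.05. DESeq2 called 0 as well. Over the alternatives the adjusted p lay between 0.0530 and 1. The exact two-sided permutation test on log2(CPM + 0.5) gave p = 0.0397, or 0.0992 when adjusted over 5 such tests in liver; the smallest p that 5 against 5 samples allow is 0.00794.

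CYP4A21 was at 247, 82.9, 260, 142 and 841 CPM in low liver samples 1 to 5 and at 173, 421, 612, 165 and 33.7 CPM in high liver samples 1 to 5. The groups overlapped over nearly their whole range. Means were 315 ± 304 CPM and 281 ± 232 CPM (SD, n = 5 each), with a log2 difference of -0.16 (SE 0.67, edgeR adjusted p = 0.9999, exact permutation p = 0.778). This difference changed sign without low sample 5 (0.62) or high sample 5 (0.13), and with a term for deep and shallow libraries (0.02). Low sample 5, with 53.5% of the summed CPM of its group, and high sample 3, with 43.6%, were the leading samples. CYP4B1 (19 counts in 10 livers) and CYP4A11 (6 counts) were too low in liver for a group difference to be detected at this depth.

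CYP4A21 and CYP4A24 varied partly together in liver. Over the 10 livers r was 0.71 (permutation p = 0.0232, adjusted p = 0.0278) and rho was 0.56 (permutation p = 0.0975, adjusted p = 0.0975), and without the 2 samples farthest from the median r was 0.08, so the pooled relation rested on those samples. With group means subtracted, r was 0.85 (exact permutation p = 0.00833, adjusted p = 0.0125) and rho was 0.83 (exact permutation p = 0.00757, adjusted p = 0.0125), and r was 0.65 without the 2 farthest samples. With the means of deep and shallow libraries subtracted instead, r was 0.69.

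The proportion of the 2 liver genes was also compared between the androstenone groups. CYP4A24 made up 30.6%, 65.2%, 49.6%, 44.7% and 35.2% of the counts of both in low liver samples 1 to 5, and 23.5%, 31.4%, 11.3%, 23.0% and 29.5% in high liver samples 1 to 5. Only low sample 1 and high sample 2 crossed, at 30.6% and 31.4%. The mean share was 45.0 ± 13.5% in low and 23.7 ± 7.86% in high liver (SD, n = 5 each). As a log2 ratio of CYP4A24 to CYP4A21 counts, the high minus low difference was -1.46, with an exact two-sided permutation p of 0.0159 and an adjusted p of 0.0794 over the 5 tests in liver, so it did not pass the correction. The ratio was chosen after the values were seen. Without any 1 sample the difference lay between -1.68 and -1.16. Within the 5 deep libraries the share was 30.6 to 65.2% in 3 low and 11.3 to 23.5% in 2 high samples, and within the 5 shallow ones 44.7 to 49.6% in 2 low and 23.0 to 31.4% in 3 high samples.

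**Figure D5:**
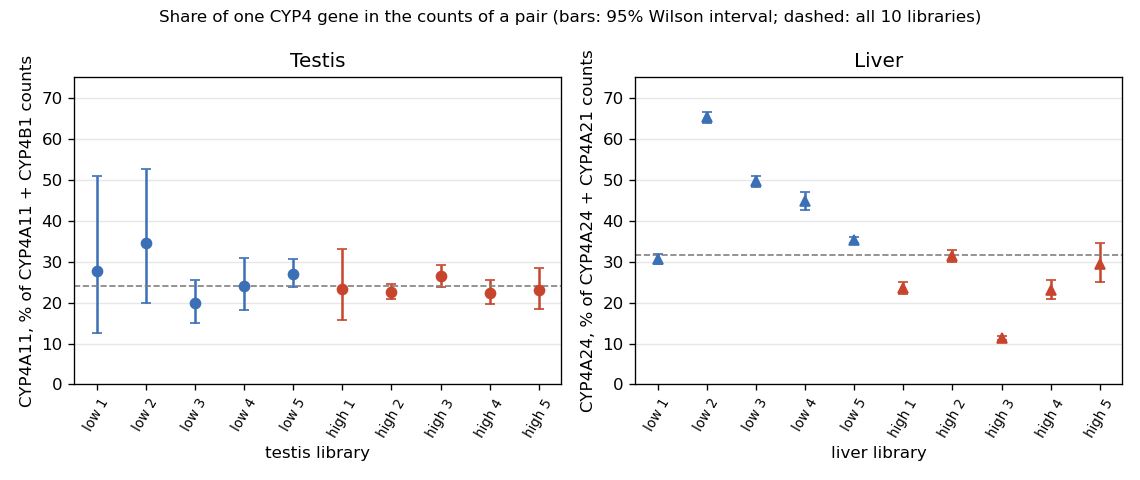
Left, CYP4A11 as a percentage of the counts of CYP4A11 and CYP4B1 in each testis library; right, CYP4A24 as a percentage of the counts of CYP4A24 and CYP4A21 in each liver library, with bars for the 95% Wilson interval and a dashed line for the sum of all 10 libraries. All testis intervals hold the line at 23.96%, while liver shares run from 11.3% to 65.2% and are lower in the high androstenone group apart from 1 crossing pair.

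A difference of the androstenone effect between liver and testis, fitted as an interaction over all 20 libraries, had an adjusted p of 1.00 and an unadjusted p of 0.196 for CYP4A24 in edgeR. For CYP4B1 and CYP4A11 this difference contains the testis values on which they were selected, and CYP4A21 had 9 counts in testis, so no such test is given for them.

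The liver genes most like CYP4A21, by r over the 10 livers among 4100 IDs with a symbol, were PCCB (r = 0.94) and IVD (r = 0.92), which code for mitochondrial enzymes of propionate and leucine breakdown, LOC100514563 (r = 0.93), HPGD, which inactivates prostaglandins (r = 0.92), and TXNIP, a thioredoxin-binding protein gene (r = 0.91). Those most like CYP4A24 were PCBD1, a pterin recycling enzyme gene (r = 0.94), CD2 (r = 0.92) and CD3E (r = 0.86), both T cell surface protein genes, FAM151B (r = 0.88) and NDUFAF5, an assembly factor of respiratory complex I (r = 0.86). CD2, CD3E, FAM151B and NDUFAF5 were low, between 0.42 and 12.8 CPM, and so was LOC100514563, between 0.14 and 4.71 CPM.

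Of 12 other CYP4 genes listed, only CYP4F2, known for hydroxylating vitamin E and leukotriene B4, was measured, by 2 IDs that may share reads. Both were higher in liver (log2 differences 5.15, SE 0.33, and 4.91, SE 0.31, edgeR adjusted p = 2.37e-13 and 1.72e-13), a call shared by 32.2% of all IDs. In high against low boars their log2 differences were -0.65 and -0.56 in testis and -0.06 and -0.23 in liver. None of these passed, beside 0% of all IDs. Of the P450 electron donors, CYB5A and CYB5B were measured among 7 listed. Neither was called between the tissues, beside 75.7% of all IDs called. Neither was called between high and low boars, beside 0% of all IDs in either tissue.

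Genes that act beside the CYP4 enzymes were compared between the tissues by the same fit, in which 32.2% of all IDs were called higher in liver and 43.5% higher in testis, with a median log2 difference of -0.31. Of the PPAR alpha list, 20 of 22 measured genes were called higher in liver and 0 higher in testis, with a median log2 difference of 3.55. PLIN2, a lipid droplet coat protein gene, was higher by 4.97 (SE 0.59) and ACADM, a fatty acid dehydrogenase gene, by 4.18 (SE 0.22). Peroxisomal fatty acid oxidation had 11 of 13 measured genes called higher in liver (median 2.27, beside 32.2% and -0.31 for all IDs), among them CAT, the catalase gene (5.75, SE 0.34). For the oxidation of omega-hydroxy fatty acids, 3 of 4 measured genes were called higher in liver (32.2% of all IDs), among them the aldehyde dehydrogenase genes ALDH2 (4.59, SE 0.32) and ALDH3A2 (2.63, SE 0.19), and ACSF2, an acyl-CoA synthetase gene, was lower (-3.20, SE 0.24). Among 15 measured eicosanoid enzymes, 9 were called higher in liver and 6 in testis, the latter near the 43.5% of all IDs, among them LTC4S, the leukotriene C4 synthase gene (8.91, SE 0.33), and EPHX1, an epoxide hydrolase gene (2.83, SE 0.31), in liver and PTGES3, a prostaglandin E synthase gene (-1.08, SE 0.17), in testis. Of these lists, no gene was called between high and low androstenone boars in either tissue, and their median differences lay between -0.08 and -0.0045 on the log2 scale in testis and between -0.07 and 0.02 in liver.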

How the data were processed

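RNA of 20 samples was sequenced, each on a lane of its own in a shared run. The authors called reads with CASAVA 1.7, aligned them with BWA to RefSeq mRNA and UniGene transcripts of the Sscrofa 9.2 assembly, and deposited raw counts per reference ID, without normalization. How multiply matching reads were counted is not given in the sources used here. Each sample lists 21785 lines; 10 IDs listed 4 times were used once. Symbols came from the study's tables and a RefSeq table of another assembly, whose coordinates were not used.

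Counts were compared in edgeR 4.0.16 (R 4.3.3) with TMM scaling, at least 10 summed counts per ID, the quasi-likelihood test and Benjamini-Hochberg adjustment. A call required an adjusted p under 0.05 and a fold of at least 1.5. The SE is the log2 difference divided by the root of F. It comes from the test itself, so beside a difference given without a p it is a description only. The study's DESeq was replaced by edgeR, with DESeq2 1.42.0 as an alternative. CPM were taken to log2 with 0.5 added. Python 3.11.15, scipy 1.17.1 and matplotlib 3.10.9 served for permutation tests and figures. The fits were tested on simulated data.

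The genes and lists were chosen with earlier results of these data known. Named were all CYP4 genes, from each list the 2 measured genes with the highest mean CPM in testis and in liver where values are given, and the 5 IDs most like each gene; SOX9, LHCGR, VIPR1 and PLG were chosen after their values were seen. Replicate numbers were not used to pair samples in the main fits. Both tissues came from the same boars, but the labels do not say which testis and liver belong together, so the tissue test treats all 20 samples as separate.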

Additional observations from a re-analysis of the deposited data

Results flagged for a closer look

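Of 10 groups of 5 levels examined for a sample far from the others, 3 had one, beside a nominal chance of about 1 in 20. The gaps were taken on CPM and not on log2 levels, and some of the groups vary together. The 3 are therefore not weighed against that rate. CYP4B1 in low androstenone testis sample 5 stood at 43.3 CPM, with 10.7 CPM as the next level, a gap of 0.785 of the range of the group. CYP4A11 in the same sample stood at 16.1 CPM against 3.31 CPM, a gap of 0.830 of the range. Both values come from the same library and vary together in all testis samples, so they are not separate observations. CYP4A21 in low androstenone liver sample 5 was at 841 CPM against 260 CPM for the next, a gap of 0.766 of the range.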

How the results depend on the processing

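Over the alternatives that kept all samples of a side, the tissue differences of the 4 CYP4 genes kept their direction, between -6.94 and -6.21 for CYP4B1, -7.95 and -6.20 for CYP4A11, 11.24 and 12.64 for CYP4A21 and 4.52 and 7.30 for CYP4A24. Without any 1 sample they lay between -6.77 and -5.94, -6.58 and -5.79, 12.15 and 12.72, and 4.22 and 5.07 in turn. IDs called between high and low testis numbered 0 in the edgeR quasi-likelihood test, 52 by DESeq2 (18 higher, 34 lower), 225 by a likelihood ratio test with trended dispersion (72 higher, 153 lower) and 0 to 2 when 1 sample was left out, with 2 without low sample 5; the unadjusted count was 1741. Between high and low liver, the counts were 0, 0 by DESeq2 and 45 by the likelihood ratio test (27 higher, 18 lower), with 465 unadjusted, and 0 without any 1 sample. The cause was not tested.

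With 1 sample left out, the testis difference of CYP4A24 ranged from -0.98 (without high sample 1) to 0.69 (without low sample 4), that of CYP4B1 from 1.88 to 3.22 and that of CYP4A11 from 1.65 to 3.18. In liver the ranges were -0.67 to 0.62 for CYP4A21, -2.17 to -1.04 for CYP4A24 and -0.22 (without high sample 3) to 0.52 for CYP4B1. The liver difference of CYP4A21 also reversed with the replicate block (0.041), with the depth covariate and the library division, which here are the same term (0.022), and in libraries below the division alone (0.027). The correlation of CYP4A21 and CYP4A24 in liver fell from 0.71 to 0.077, and from 0.85 to 0.65 with group means subtracted, without the 2 farthest samples. The labels do not say whether replicate numbers pair the samples. Same-numbered samples correlated by -0.06 to 0.16 in testis, -0.35 to 0.48 in liver and -0.06 to 0.43 between tissues. In turn, 1 of 5, 1 of 5 and 4 of 10 correlated best with their own number. These correlations do not decide the question. With the replicate block, 0 IDs were called in testis, 0 in liver and 14201 between tissues, beside 14436 without it.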
